A study of Mus musculus with 10 samples.

Results

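Double-positive (DP) thymocytes of mice that lost HEB were compared directly with DP thymocytes of mice that lost E2A, using 4 of the 10 Affymetrix expression arrays of the study. The members of the comparison were chosen by the sample titles: 2 arrays of HEB-deficient cells (HEBKO) were set against 2 arrays of E2A-deficient cells (E2AKO). Of 19937 genes that had a probe set with 1 gene symbol, 13138 were tested, because their signal exceeded the 40th percentile in 2 or more arrays, and the other 6799 were too dim.

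Each array held RNA of sorted CD4 and CD8 double-positive cells from the thymus of 1 mouse, at 8 weeks of age. HEBKO mice carried floxed HEB alleles (HEBflox/flox) with Cd4-cre, and E2AKO mice carried floxed E2A alleles (E2Aflox/flox) with Cd4-cre. The remaining arrays came from 3 mice with both genes floxed and Cd4-cre (DKO) and from 3 wild-type mice that also carried Cd4-cre (WT). Cre was thus present in every group, and deletion under Cd4 control leaves the earlier thymocyte stages with intact alleles at first. Sorted cells were over 98% pure, about 1000000 cells were collected and 6 µg of RNA was labelled.

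HEB (gene Tcf12) and E2A (gene Tcf3) are basic helix-loop-helix transcription factors, called E proteins, that bind the E-box CANNTG as dimers. In thymocytes the HEB and E2A proteins pair with each other, and Id proteins block them by forming dimers that cannot bind DNA. E proteins are known for their part in T cell receptor gene rearrangement and in holding DP cells at that stage until selection. The comparison asked in which transcripts the loss of one partner differed from the loss of the other.

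The median intensity over all probe sets was 92.6 to 98.6 across the 10 arrays, and the 40th percentile lay at 6.03 to 6.13 on the log2 scale. The correlation of log2 values across genes, which are not independent replicates, was 0.983 between the HEBKO arrays, 0.985 between the E2AKO arrays, and 0.971 to 0.983 between HEBKO and E2AKO arrays. Xist and Y-linked genes showed that replicate 1 was female and replicate 2 male in both groups. HEBKO 1 stood apart from the other HEBKO, E2AKO and WT arrays in markers of DP cells. The summed linear intensity of 7 such markers was 30892 in HEBKO 1 and 40526 in HEBKO 2. It was 42432 and 43939 in E2AKO 1 and 2, 43227 to 44887 in WT, and 23977 to 27406 in DKO. All 7 DP markers were above the 40th percentile in all 4 arrays. Of 16 macrophage and dendritic markers 12 were below that percentile in all 4 arrays, as were 6 of 9 B cell, 7 of 8 granulocyte, 5 of 8 gamma-delta T and NK, 5 of 10 fibroblast and endothelium, 4 of 12 thymic epithelial and 0 of 3 erythroid markers. The summed thymic epithelial signal was 1114 and 1133 in HEBKO, against 1138 and 1218 in E2AKO, that of fibroblast and endothelium 1686 and 1698 against 1597 and 1950, and that of erythroid cells 244 and 215 against 231 and 246. The summed macrophage and dendritic signal was 956 and 912 in HEBKO, against 986 and 950 in E2AKO. In bulk RNA, fewer cells of a type and less RNA per cell cannot be told apart.

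Tcf3, the E2A gene, had log2 intensities of 10.02 and 10.06 in HEBKO 1 and 2, against 9.23 and 9.12 in E2AKO 1 and 2. Its DKO values were 9.29, 8.93 and 8.94, and its WT values were 9.65, 9.85 and 9.63. Both HEBKO arrays were above all other arrays, and both E2AKO arrays were below all WT arrays. Tcf12, the HEB gene, had 11.15 and 11.48 in HEBKO, against 12 and 11.87 in E2AKO. Its DKO values were 10.68, 10.73 and 10.71, and its WT values were 11.91, 11.74 and 11.86. The HEBKO arrays were below the E2AKO and WT arrays without overlap. HEBKO minus E2AKO was 0.87 ± 0.14 (SE) for Tcf3 and -0.62 ± 0.13 for Tcf12, with limma adjusted p = 0.0629 and 0.0794, so neither passed the threshold of 0.05. The sources used here do not say which exons were deleted, and these probe sets may lie partly outside them.

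Only 5 of 13138 genes passed the test between HEBKO and E2AKO (limma, 2 arrays each, Benjamini-Hochberg adjusted p under 0.05), which is 0.0381% of the genes tested. Myzap, Fmnl2, Lrig1 and Gbp4 were lower in HEBKO, and Atp8b4 was higher. These were 0.0304% and 0.00761% of all genes. An unadjusted p under 0.05 was reached by 2017 genes (15.4%), of which 1207 were higher and 810 lower in HEBKO. The median of HEBKO minus E2AKO over all genes was 0.036 on the log2 scale, the median size was 0.14, and the median SE was 0.14. With 2 arrays against 2, an exact two-sided permutation test of a single gene cannot go below p = 0.333, so the calls rest on a spread shared among all 10 arrays.

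**Figure D1:**
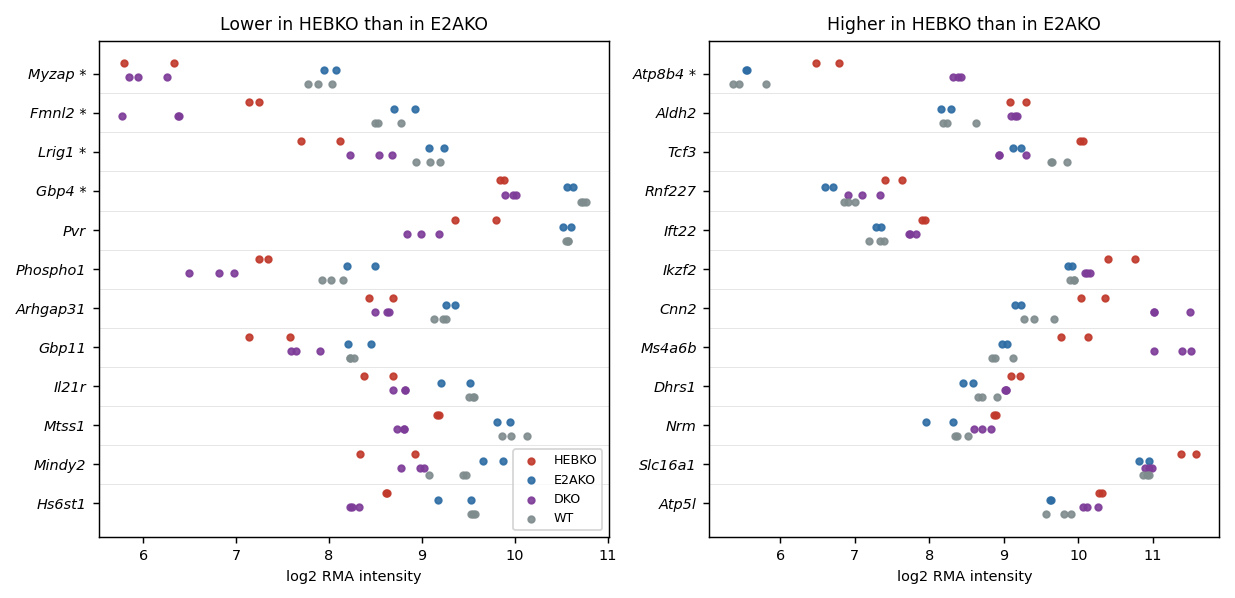
Log2 intensity of the 12 named genes lower and the 12 named genes higher in HEBKO than in E2AKO, called genes first and then those of lowest p. Each point is 1 array, and in the row of each gene the groups are HEBKO, E2AKO, DKO and WT from top to bottom. An asterisk marks an adjusted p under 0.05. In the row of Myzap the HEBKO arrays lie at 6.33 and 5.79, and the E2AKO arrays at 7.94 and 8.07.

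The count depended on single arrays: it was 0 without E2AKO 2, 1 without E2AKO 1, 1 without HEBKO 1, and 55 without HEBKO 2. Without WT 3 or without DKO 2 it was 2, and without WT 1 or WT 2 it was 9 and 10. Without E2AKO 2, limma still gave 1196 genes at an unadjusted p under 0.05. Myzap passed in 19 of 20 alternatives and Fmnl2 in 17, whereas Lrig1 and Atp8b4 passed in 12 and Gbp4 in 11.

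**Figure D2:**
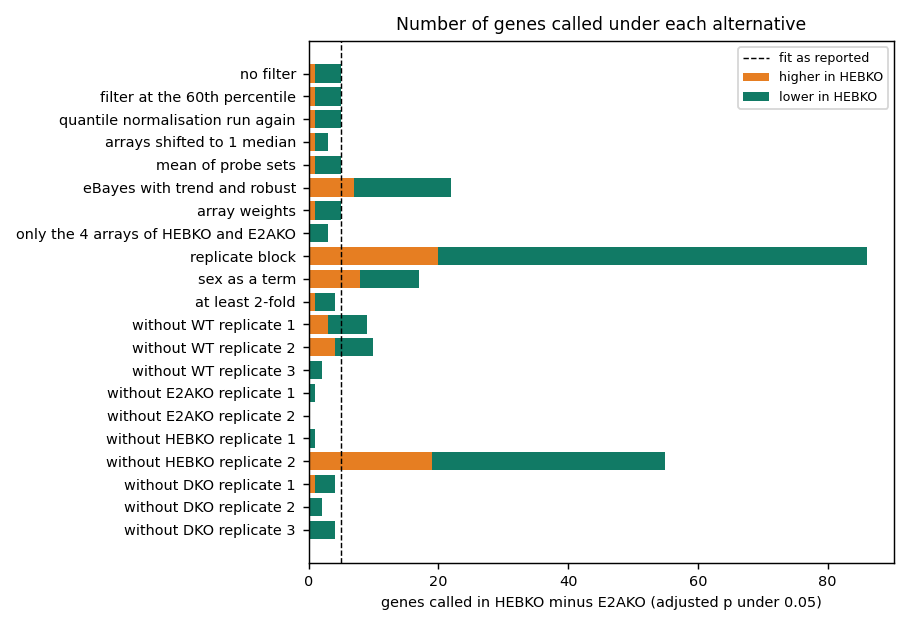
Number of genes that passed the test between HEBKO and E2AKO in each alternative, as bars split into genes higher and lower in HEBKO. The dashed line marks the 5 genes of the fit as reported, and the alternatives ran from 0 without E2AKO 2 to 86 with the replicate number as a block.

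Myzap encodes a protein first described at the junctions between heart muscle cells (probe set 10594840). Its log2 intensity was 6.33 and 5.79 in HEBKO, against 7.94 and 8.07 in E2AKO. The groups did not overlap, and HEBKO 2 was below the 40th percentile of its array. HEBKO minus E2AKO was -1.94 ± 0.18 (95% interval -2.34 to -1.55, limma adjusted p = 0.00273), which is 26.0% of the E2AKO level. DKO had 5.94, 5.85 and 6.25, against 7.88, 8.03 and 7.77 in WT, so the DKO arrays were in the HEBKO range and the E2AKO arrays were in or just above the WT range. Relative to WT the HEBKO change was -1.83 and the E2AKO change was 0.11; these and HEBKO minus E2AKO share arrays and are not independent.

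Fmnl2 is a formin, a protein that builds unbranched actin filaments at the cell edge (probe set 10472097). Its log2 intensity was 7.14 and 7.25 in HEBKO, against 8.70 and 8.92 in E2AKO. The groups were apart by more than their spread, with HEBKO minus E2AKO at -1.62 ± 0.19 (95% interval -2.03 to -1.20, limma adjusted p = 0.0168) and HEBKO at 32.6% of E2AKO. The DKO arrays were lower still, at 6.38, 6.37 and 5.77, against 8.49, 8.77 and 8.53 in WT. Among 8 other formin genes tested, none passed in limma, and 2 had an unadjusted p under 0.05 (15.4% of all genes). The differences of the 8 genes ran from -0.43 for Diaph2 to 0.58 for Diaph3.

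Lrig1 is a membrane protein that restrains receptor tyrosine kinases of the EGF receptor family (probe set 10546510). It had 7.70 and 8.12 in HEBKO, against 9.07 and 9.24 in E2AKO. The difference was -1.24 ± 0.17 (95% interval -1.62 to -0.86, limma adjusted p = 0.0418), or 42.3% of the E2AKO level. DKO arrays had 8.68, 8.54 and 8.23 and WT arrays 9.19, 8.94 and 9.09. The HEBKO arrays were below all DKO arrays for this gene, unlike for Fmnl2.

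Gbp4 belongs to the guanylate-binding proteins, large GTPases induced by interferon (probe set 10531987). It had 9.88 and 9.84 in HEBKO, against 10.63 and 10.56 in E2AKO. DKO had 9.89, 9.98 and 10.01, and WT had 10.73, 10.71 and 10.76. The replicates lay close together, and HEBKO minus E2AKO was -0.74 ± 0.10 (95% interval -0.96 to -0.52, limma adjusted p = 0.0418), with HEBKO at 59.9% of E2AKO. Of the 6 guanylate-binding protein genes tested, the 4 on chromosome 5 all had negative differences: Gbp4, then Gbp8 with -0.97 ± 0.23 (adjusted p = 0.107), Gbp11 with -0.97 ± 0.16 (adjusted p = 0.0656) and Gbp9 with -0.46 ± 0.22 (adjusted p = 0.357). Gbp9 overlapped between the groups, with 8.84 and 7.98 in HEBKO, against 8.89 and 8.84 in E2AKO. On chromosome 3, Gbp7 had -0.19 ± 0.19 and Gbp3 0.31 ± 0.14. These genes are close copies whose probes may share signal, so the values of single members are uncertain. In the list of 12 tested interferon-stimulated genes the median was 0.02, none passed in limma, and 2 higher and 1 lower had an unadjusted p under 0.05, against 15.4% of all genes in either direction.

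Atp8b4 is a member of the P4-ATPases, which move phospholipids between the leaflets of a membrane (probe set 10487208). It had 6.79 and 6.48 in HEBKO, against 5.54 and 5.55 in E2AKO. Both E2AKO arrays and all 3 WT arrays (5.81, 5.36 and 5.44) were below the 40th percentile, and DKO arrays had 8.43, 8.39 and 8.32. HEBKO minus E2AKO was 1.09 ± 0.15 (95% interval 0.75 to 1.43, limma adjusted p = 0.0418), or 213% of the E2AKO level. The ratio may be understated, because dim probe sets carry background.

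The sign of each of these differences was the same in the female and in the male pair. HEBKO minus E2AKO was -1.61 in females and -2.28 in males for Myzap, -1.57 and -1.67 for Fmnl2, -1.36 and -1.12 for Lrig1, -0.75 and -0.73 for Gbp4, and 1.25 and 0.93 for Atp8b4. Each sex had 1 array per group, so a difference between the sexes was not tested.

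The upstream windows of 4 of these genes are shown because E proteins bind CANNTG. They are the 250 bases before the RefSeq transcript start (GRCm38.p6), and CANNTG, searched on both strands (it is its own reverse pattern), is in capitals. The windows are Myzap at chr9:71592361-71592610 on the minus strand, Fmnl2 at chr2:52857618-52857867 on the plus strand, Lrig1 at chr6:94700146-94700395 on the minus strand and Atp8b4 at chr2:126491554-126491803 on the minus strand.
Myzap: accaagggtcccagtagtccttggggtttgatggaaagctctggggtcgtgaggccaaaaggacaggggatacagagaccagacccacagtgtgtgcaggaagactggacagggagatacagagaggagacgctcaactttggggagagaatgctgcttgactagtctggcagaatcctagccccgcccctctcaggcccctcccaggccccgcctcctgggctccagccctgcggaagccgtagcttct
Fmnl2: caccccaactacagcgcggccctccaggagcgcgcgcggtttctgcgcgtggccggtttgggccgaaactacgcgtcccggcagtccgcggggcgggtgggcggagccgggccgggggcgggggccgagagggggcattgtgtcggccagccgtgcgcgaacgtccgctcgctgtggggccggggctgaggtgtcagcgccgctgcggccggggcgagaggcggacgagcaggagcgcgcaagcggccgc
Lrig1: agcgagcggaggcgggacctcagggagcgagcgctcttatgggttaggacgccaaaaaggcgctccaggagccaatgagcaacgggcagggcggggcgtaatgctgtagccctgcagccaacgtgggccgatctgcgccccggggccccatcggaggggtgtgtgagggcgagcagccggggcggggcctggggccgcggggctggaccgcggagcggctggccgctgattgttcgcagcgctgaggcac
Atp8b4: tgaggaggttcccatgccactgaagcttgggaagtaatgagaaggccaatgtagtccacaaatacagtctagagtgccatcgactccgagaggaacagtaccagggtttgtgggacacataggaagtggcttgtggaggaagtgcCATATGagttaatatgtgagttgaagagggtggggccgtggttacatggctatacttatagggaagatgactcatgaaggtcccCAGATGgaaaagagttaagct
The letters CATATG and CAGATG stood in the Atp8b4 window, and no CANNTG stood in the other 3 windows. CANNTG occurred in 66.2% of 32851 mouse windows of this length, CAGCTG in 13% and CACCTG, on either strand, in 17.2%. A match in these letters is a description of the window, not a binding site.

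Below the threshold, the named genes continued with 8 further lower and 11 further higher genes, none of which passed (limma adjusted p from 0.0612 to 0.0656). In all 24 named genes the HEBKO and E2AKO arrays did not overlap, and over all genes 27.2% had both HEBKO arrays above and 18.4% had both below. They were named for their low p, so this count supports nothing by itself. Il21r, the receptor of the T cell cytokine IL-21, had 8.69 and 8.38 in HEBKO, against 9.20 and 9.52 in E2AKO (-0.83 ± 0.14). Pvr, the ligand of CD226 and TIGIT, had 9.36 and 9.80 against 10.60 and 10.52 (-0.98 ± 0.15). Hs6st1, which sulfates heparan chains, had 8.61 and 8.62 against 9.53 and 9.17 (-0.73 ± 0.12). Mtss1, a scaffold between membrane and actin, had a difference of -0.71 ± 0.12, and Arhgap31, which turns off Rac1 and Cdc42, had -0.75 ± 0.12. Phospho1, a phosphatase of mineralising cells, had -1.05 ± 0.16.

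On the higher side, Ikzf2, which encodes the Ikaros family factor Helios, had 10.76 and 10.39 in HEBKO, against 9.91 and 9.86 in E2AKO (0.69 ± 0.13). Its relatives Ikzf1 and Ikzf3 had differences of -0.20 ± 0.12 and -0.31 ± 0.13, and neither passed. Ms4a6b, a membrane protein of T cells, had 10.13 and 9.77 against 8.97 and 9.04 (0.95 ± 0.17). Cnn2, an actin-binding calponin, had 10.35 and 10.04 against 9.23 and 9.15 (1.01 ± 0.18). Aldh2, the mitochondrial aldehyde dehydrogenase, had 9.30 and 9.08 against 8.29 and 8.16 (0.96 ± 0.15). Slc16a1, a lactate transporter, had 0.60 ± 0.11, Atp5l, a subunit of ATP synthase, had 0.67 ± 0.13, and Nrm, a protein of the inner nuclear membrane, had 0.74 ± 0.14. Rnf227, Dhrs1 and Ift22 had differences of 0.86, 0.64 and 0.61.

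Myzap is the next tested gene to Tcf12 in the gene order of chromosome 9, and Mindy2, which encodes a deubiquitinase, is the fourth on the same side. Mindy2 had 8.33 and 8.92 in HEBKO, against 9.66 and 9.87 in E2AKO (-1.15 ± 0.19, limma adjusted p = 0.0656). Of the 20 tested genes nearest to Tcf12, 1 passed and 7 had an unadjusted p under 0.05 (15.4% of all genes), with a range of -1.94 to 0.47 and a median of -0.16. Polr2m, between Myzap and Mindy2, had -0.01, and Zfp280d, on the other side of Tcf12, had -0.13. Around Tcf3 on chromosome 10, none of 20 neighbours passed in limma, 2 had an unadjusted p under 0.05, a smaller share than over all genes, and the range was -0.25 to 0.34. These windows were looked at after the value of Myzap was known.

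**Figure D3:**
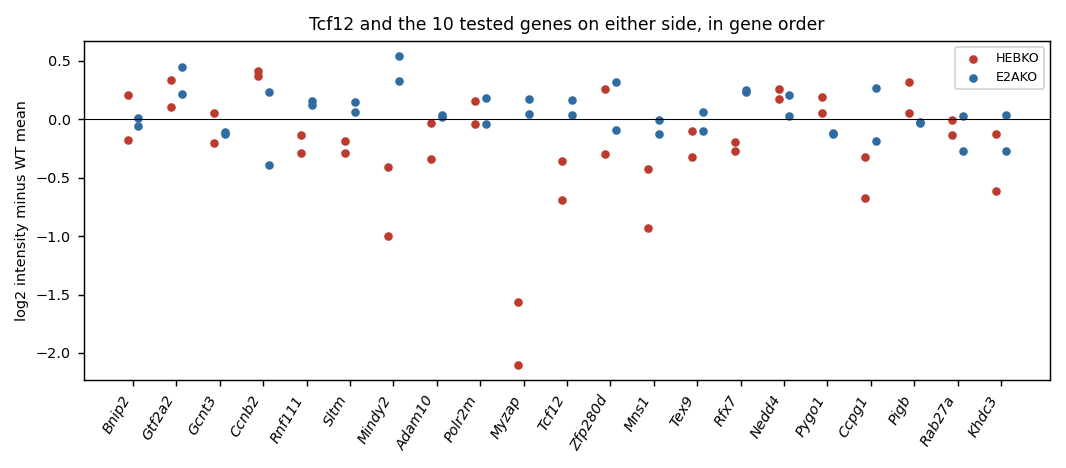
Log2 intensity minus the WT mean of Tcf12 and of the 20 tested genes nearest to it, in gene order. Each point is 1 HEBKO or E2AKO array. Myzap and Mindy2 had the lowest HEBKO minus E2AKO of these neighbours, at -1.94 and -1.15.

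A difference of at least 2-fold was seen for 32 genes lower in HEBKO (0.244% of genes) and 7 higher (0.0533%), of which 3 and 1 passed the test. Of the 32, HEBKO and E2AKO arrays did not overlap in 28, while 18.4% of all genes had both HEBKO arrays below. The 32 were chosen for a large difference, so this count supports nothing by itself. Probe sets of 2 microRNA genes of 1 cluster were among the 32. Mir181a-1 had 6.93 and 8.10 in HEBKO, against 8.84 and 9.26 in E2AKO (-1.53, limma adjusted p = 0.114). Mir181b-1 had 8.93 and 9.78, against 10.34 and 10.92 (-1.28, limma adjusted p = 0.108). Both HEBKO arrays were below both E2AKO arrays for each, with HEBKO 1 lowest, and DKO arrays had 5.74, 6.60 and 5.97 for Mir181a-1, against 8.38, 9.11 and 9.22 in WT. The miR-181 family is known to set T cell receptor sensitivity in DP cells. The array does not measure the mature RNA. The mature 5p arms are shown because they share a seed (bases 2 to 8, in capitals, RefSeq GRCm38.p6).
miR-181a-5p: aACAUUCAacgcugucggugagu
miR-181b-5p: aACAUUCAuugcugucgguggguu

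Both lie on chromosome 1, at chr1:137966468-137966490 and chr1:137966650-137966673 on the plus strand. Nav2, a microtubule-linked protein of growing axons, had 8.45 and 8.27 in HEBKO, against 9.60 and 9.85 in E2AKO. WT had 9.27, 8.32 and 9.47, so WT 2 lay between the HEBKO arrays. From the WT mean, HEBKO was at -0.67 (limma adjusted p = 0.222) and E2AKO at 0.70. HEBKO minus E2AKO of Nav2 did not pass (limma adjusted p = 0.0803). Variable segments of the T cell receptor alpha locus appeared here too: Trav7n-5 had 5.47 and 7.15 in HEBKO against 7.96 and 9.10 in E2AKO, and such segments have near-identical copies, so their values are uncertain. These genes were chosen for the size of their difference, which is a description.

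Genes of DNA replication leaned higher in HEBKO. Of 25 S-phase genes tested (origin licensing, DNA polymerases and nucleotide supply), none passed the adjusted threshold, and 23 had an unadjusted p under 0.05 with higher values in HEBKO, against 9.19% of all genes. The same number had both HEBKO arrays above both E2AKO arrays, against 27.2% of all genes. The list's median was 0.63, beside 0.036 over all genes. Gins1, of the replicative helicase, had 7.95 and 7.84 in HEBKO, against 7.36 and 6.51 in E2AKO (0.95 ± 0.27, limma adjusted p = 0.143). Mcm5, another helicase subunit, had 10.26 and 10.19 against 9.64 and 9.19 (0.81 ± 0.20). Cdc6, a loader of that helicase, had 0.85 ± 0.26, and Prim1, the primase, had 0.82 ± 0.22. E2AKO 2 was lower than E2AKO 1 in each of these genes.

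Relative to the WT mean, the S-phase median was 0.58 and 0.53 in HEBKO 1 and 2, 0.20 and -0.36 in E2AKO 1 and 2, and -0.15, 0.26 and -0.11 in WT 1 to 3. Both HEBKO arrays were thus above all WT arrays, while the E2AKO arrays were on either side of the WT mean. In DKO the values were 0.18, 0.13 and -0.20. Without E2AKO 2 the median of HEBKO minus E2AKO was 0.34 and only 2 of the 25 genes had an unadjusted p under 0.05, with 4.74% of all genes higher in that fit. Without E2AKO 1 the median was 0.93, without HEBKO 1 it was 0.62, and without HEBKO 2 it was 0.66.

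Of 24 mitosis genes, 11 had an unadjusted p under 0.05, all higher in HEBKO (9.19% of all genes), and 19 had both HEBKO arrays above (27.2% of all genes), with a median of 0.53. Relative to the WT mean, the mitosis median was 0.28 and 0.51 in HEBKO, 0.18 and -0.43 in E2AKO, -0.16, 0.05 and -0.56 in DKO, and -0.15, 0.25 and -0.08 in WT. HEBKO 1 was thus close to WT 2. Cdk1, the kinase that starts mitosis, had 10.22 and 10.08 in HEBKO, against 9.80 and 8.79 in E2AKO (0.86 ± 0.30), and Birc5, of the chromosomal passenger complex, had 0.78 ± 0.26. Both the mitosis count and the mitosis median depended on the arrays kept. Without E2AKO 2, or without HEBKO 2, the share of mitosis genes at an unadjusted p under 0.05 no longer stood out from that of all genes. With 1 array left out, the mitosis median of HEBKO minus E2AKO ran from 0.26 to 0.85. Of 10 serine and folate genes, 9 had an unadjusted p under 0.05 and a higher value in HEBKO (9.19% of all genes), with a median of 0.57. Their median from WT was 0.60 and 0.49 in HEBKO, 0.16 and -0.26 in E2AKO, 0.35, 0.20 and 0.05 in DKO, and -0.02, 0.20 and -0.14 in WT. Psat1, of serine synthesis, had 8.85 and 8.80, against 8.11 and 7.61 (0.97 ± 0.21, limma adjusted p = 0.0959), and Mthfd2, a mitochondrial folate enzyme, had 0.75 ± 0.22. The serine and folate count was far smaller without E2AKO 2. The serine and folate median of HEBKO minus E2AKO ran from 0.35 to 0.77 with 1 array left out. No gene of either list passed the adjusted threshold.

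**Figure D4:**
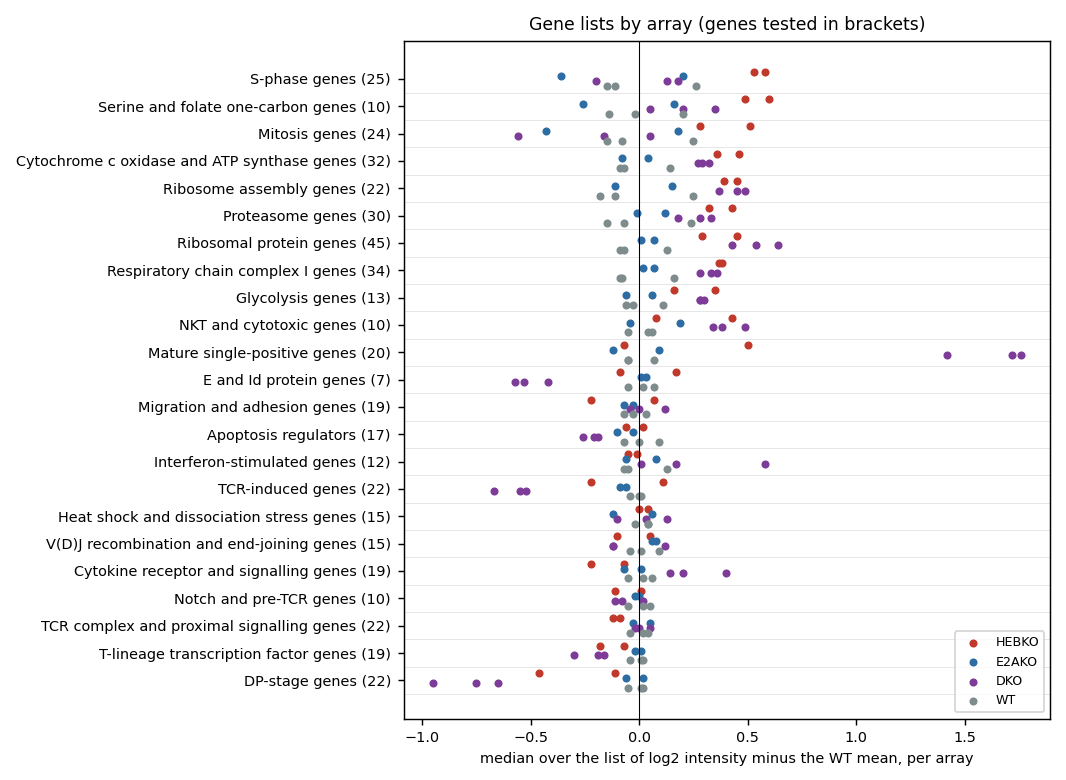
Median of each gene list relative to the WT mean (log2), with 1 point per array and the groups HEBKO, E2AKO, DKO and WT from top to bottom. For S-phase genes HEBKO lies at 0.58 and 0.53, E2AKO at 0.20 and -0.36, and the DP-stage genes of HEBKO lie at -0.46 and -0.11.

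Mitochondrial, ribosomal and proteasome genes were also shifted towards higher values in HEBKO, by less. Of 34 complex I genes 15 had an unadjusted p under 0.05 (median 0.31), and of 32 cytochrome c oxidase and ATP synthase genes 21 had one (median 0.39), with none lower, against 9.19% of all genes higher. Cox7b, of cytochrome c oxidase, had 9.73 and 9.58 in HEBKO, against 9.13 and 8.78 in E2AKO (0.70 ± 0.18), and Ndufc2, of complex I, had 0.72 ± 0.19. Of 45 ribosomal protein genes 16 had an unadjusted p under 0.05 (median 0.32), of 22 ribosome assembly genes 9 (median 0.34) and of 30 proteasome genes 16 (median 0.33), all higher. Nop10, of the particle that modifies ribosomal RNA, had 8.95 and 8.88, against 8.22 and 7.99 (0.81 ± 0.17, limma adjusted p = 0.0776). Without E2AKO 2 these counts were 6 of 34, 11 of 32, 13 of 45, 5 of 22 and 5 of 30, with 4.74% of all genes higher in that fit. With 1 array left out, the median ran from 0.26 to 0.36 for complex I and from 0.29 to 0.48 for oxidase and ATP synthase genes. It ran from 0.23 to 0.39 for ribosomal protein, 0.24 to 0.43 for ribosome assembly and 0.27 to 0.39 for proteasome genes. No gene of these lists passed the adjusted threshold.

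Genes that mark the DP stage leaned the other way. Of 22 tested, none passed, 7 had an unadjusted p under 0.05 and a lower value in HEBKO (6.17% of all genes), and 13 had both HEBKO arrays below both E2AKO arrays (18.4% of all genes), with 1 above. The median was -0.26. Cd4, which was also used to sort the cells, had 11.34 and 11.77 in HEBKO, against 12.29 and 12.19 in E2AKO (-0.68 ± 0.17, limma adjusted p = 0.114). Plxnd1, a semaphorin receptor of DP cells, had 9.76 and 10.12 against 10.70 and 10.67 (-0.75 ± 0.16), and Arpp21 had 10.49 and 11.24 against 11.40 and 11.62 (-0.64 ± 0.22). The lowest value was in HEBKO 1 for all 3. Aqp11, a water channel, had 9.97 and 8.76 against 10.26 and 11.09 (-1.31 ± 0.51), with the lowest value in HEBKO 2.

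The DP-stage median was -0.10 without HEBKO 1 and -0.43 without HEBKO 2, and the count of lower genes was 3 and 12, with 4.15% and 6.97% of all genes lower in those fits. Of the 4 arrays compared, HEBKO 1 had the lowest summed DP marker signal. That sum includes Cd4, a gene of this list, so it is not separate evidence. The part of the lower marker signal in the result was not tested. Rag1 and Rag2, the recombinase that cuts T cell receptor genes, had 12.98 and 13.53 in HEBKO against 13.61 and 13.58 in E2AKO, and 9.93 and 10.80 against 10.97 and 10.93. Neither passed, and HEBKO 1 was the lowest of the 4 arrays in both. Bcl2l1 (Bcl-xL), an inhibitor of apoptosis on which DP cells depend, had 9.76 and 10.08 against 10.42 and 10.54 (-0.56 ± 0.13, limma adjusted p = 0.102).

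Genes of mature single-positive cells separated the HEBKO arrays from each other more than from E2AKO. Relative to WT, the median of the 20 genes tested was 0.50 and -0.07 in HEBKO 1 and 2, against -0.12 and 0.09 in E2AKO. The median difference was 0.19, and it was -0.03 without HEBKO 1 and 0.55 without HEBKO 2. Gimap7, a GTPase of lymphocyte survival, had 8.17 and 7.74 in HEBKO, against 7.17 and 7.19 in E2AKO (0.77 ± 0.15, limma adjusted p = 0.0749). Gimap3 and Gimap4, of the same family, had 7.79 and 6.60 against 6.01 and 6.41, and 8.95 and 7.39 against 7.02 and 7.93. In both, HEBKO 1 was far above the E2AKO arrays and HEBKO 2 was near them, and Gimap4 overlapped between the groups. In the 22 TCR-induced genes tested, the HEBKO arrays also lay on either side, with list medians of 0.11 and -0.22 from WT, against -0.09 and -0.06 in E2AKO. The median of HEBKO minus E2AKO was 0.00, and it was -0.20 without HEBKO 1 and 0.15 without HEBKO 2. With all arrays, 4 genes had both HEBKO arrays above (27.2% of all genes) and 2 had both below (18.4% of all genes). Without HEBKO 1, 5 of them had an unadjusted p under 0.05 and a lower value in HEBKO (4.15% of all genes in that fit), and without HEBKO 2, 5 had one and a higher value (8.07%). Among them Myc had 8.47 and 8.17, against 7.66 and 7.32 (0.83 ± 0.24), and Dusp6, a phosphatase of ERK, had 8.36 and 7.72, against 8.85 and 8.70 (-0.73 ± 0.20). Of 22 genes of the T cell receptor complex and proximal signalling, 5 had an unadjusted p under 0.05 and a lower value in HEBKO (6.17% of all genes), among them Cd247, the zeta chain (-0.47 ± 0.12). The median of this list ran from -0.18 to -0.11 with 1 array left out. In the same list 1 gene, the phosphatase gene Ptpn6, had an unadjusted p under 0.05 and a higher value (0.33 ± 0.14, against 9.19% of all genes). The summed markers of double-negative thymocytes were 865 and 734 in HEBKO, against 817 and 758 in E2AKO.

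Over 23 functional lists, 436 of 503 listed genes were tested and 1, Fmnl2, passed. Among other E and Id protein genes, Tcf4, the third E protein gene, had a difference of -0.29 ± 0.13 and Id4 one of 0.28 ± 0.13, and neither passed.

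DKO minus WT was fitted on arrays that HEBKO minus E2AKO did not use, although both contrasts share each gene's estimate of spread. It called 1786 genes (13.6%), 1075 higher (8.18%) and 711 lower (5.41%). Of the 1207 genes that leaned higher in HEBKO than in E2AKO at an unadjusted p under 0.05, 322 were called higher in DKO (26.7%) and 11 lower (0.911%). Of the 810 that leaned lower in HEBKO, 289 were called lower in DKO (35.7%) and 12 higher (1.48%). The first share ran from 13.2% without WT 3 to 35.1% without WT 2, and was 15.1% without WT 1, 16.4% without DKO 2 and 16.3% without DKO 3, with 4.13% to 10.9% of all genes called higher. The second ran from 26.2% to 41.5%, with 3.44% to 6.77% of all genes called lower. Among the 12 named genes lower in HEBKO, 11 were called lower in DKO, with Mindy2 as the exception (-0.41, limma adjusted p = 0.12). Among the 12 named higher genes, 6 were called higher in DKO, and Tcf3, which is deleted there, was called lower.

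**Figure D5:**
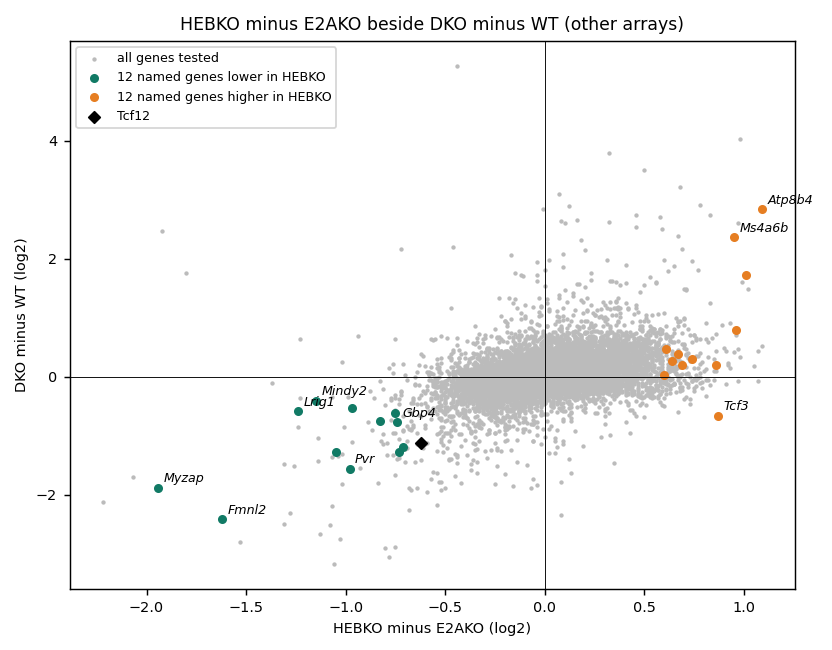
HEBKO minus E2AKO against DKO minus WT (both log2) for the genes tested, with the named genes marked by direction. The correlation across genes is 0.42, and Myzap lies at -1.94 and -1.88, Fmnl2 at -1.62 and -2.42, and Atp8b4 at 1.09 and 2.84.

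The lists differed in this respect. Over all genes, DKO minus WT called 8.18% higher and 5.41% lower. S-phase genes had a median of 0.05 in DKO minus WT and mitosis genes -0.23, with 0 and 0 called higher by limma. Among S-phase genes 1 was called lower. Ribosomal protein genes had a median of 0.54, with 29 of 45 called higher, and complex I genes 0.31, with 10 of 34. DP-stage genes had a median of -0.76, with 14 of 22 called lower and 1 higher. Mature single-positive genes had a median of 1.69, with 15 of 20 called higher and 3 lower. For 5 of the 12 named higher genes, Rnf227, Ikzf2, Dhrs1, Nrm and Slc16a1, DKO minus WT did not pass, with values of 0.03 to 0.30.

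Set side by side against the same WT arrays, HEBKO minus WT called 119 genes (0.906%) and E2AKO minus WT called none in limma, where 418 genes had an unadjusted p under 0.05. These contrasts share arrays with each other and with HEBKO minus E2AKO. The direct test is the one that called 5 genes, so a call in one knockout and none in the other did not by itself show a difference. In the 12 named lower genes, E2AKO minus WT was -0.20 to 0.44 and HEBKO minus WT was -1.83 to -0.65. In the 12 named higher genes, E2AKO minus WT was -0.54 to 0.05 and HEBKO minus WT was 0.33 to 1.10.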

How the data were processed

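RNA of sorted DP thymocytes was measured on 10 Affymetrix arrays, 1 mouse per array: 2 HEBKO, 2 E2AKO, 3 DKO and 3 WT, grouped by their titles. The deposited intensity values are linear and, per the submitters' processing notes, were made by RMA, for which no version is stated. RMA normalises between arrays, so a shift shared by all genes of an array is removed. They were used here as log2 values, without an offset. Of 34760 probe sets, 21640 had 1 gene symbol, 1321 several and 11799 none, and the last 2 kinds were left out of the gene tests. Each gene took its probe set with the highest mean, and was kept if that probe set was above the 40th percentile of the array in 2 or more arrays.

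In R 4.3.3, limma 3.58.1 (with statmod 1.5.0 in 1 alternative) fitted a mean for each genotype over the 10 arrays, with eBayes (residual degrees of freedom 6, prior 5.68, median gene SD 0.14 log2 units), two-sided p-values and Benjamini-Hochberg adjustment over 13138 genes at 0.05. Errors are SE of the fit. The number of arrays limits the precision, and p-values measure the spread between mice. The steps were tested on simulated data. Named genes were Tcf3, Tcf12, 12 rises and 12 falls (called genes first, then those of lowest p, clone and predicted names passed over) and, from each list, the 4 or fewer members that differed most. The other members of gene families, the neighbours of Tcf12 and Tcf3, and the genes named for a 2-fold difference or given as other observations, were picked with their values in view, outside this rule. The comparison and the lists were chosen with earlier results of these data known. Alternatives were other filters, normalisations, probe set rules, moderation, array weights, only the 4 arrays compared, a replicate block, sex as a term, a 2-fold minimum and leaving out each array. List counts and DKO shares without single arrays were added after the data were seen. Promoter windows and microRNAs came from RefSeq GRCm38.p6. Of the 24 named rises and falls, 16 had a window.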

Additional observations from a re-analysis of the deposited data

Results flagged for a closer look

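Probe sets with no gene symbol, or with several, were outside the gene comparison. Of them 8073 passed the same filter and 9 passed the test between HEBKO and E2AKO (limma, adjusted over the 8073), 7 lower and 2 higher in HEBKO. In the gene comparison 5 of 13138 passed (0.0381%). Signal in data that the gene comparison does not use drew attention to them. Of the 9, 6 have identifiers that precede the first probe set with a gene, 2 carry several symbols and 1 has none. Of the 4686 such early probe sets past the filter, 37.3% had both HEBKO arrays below both E2AKO arrays and 10.2% had both above, with a median of -0.22. Over the genes tested, the shares were 18.4% below and 27.2% above, with a median of 0.036, so these probe sets leaned the other way. The 2 with several symbols were higher in HEBKO: 1 had 8.03 and 7.80 in HEBKO, against 6.45 and 6.39 in E2AKO, with DKO at 7.87, 7.53 and 7.29 and WT at 6.61, 6.55 and 6.51. The genes behind these 9 probe sets were not named here. Groups of 2 or 3 arrays are too small for a test of single arrays far from the rest.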

How the results depend on the processing

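The 5 calls became 3 with the arrays shifted to 1 median, 22 with eBayes with trend and robust, 3 with only the 4 arrays of HEBKO and E2AKO, and 17 with sex as a term. Leaving out 1 array gave 0 to 55 calls, where a group left with a lone array was assumed to vary like the others. The count stayed at 5 with no filter, the 60th percentile, renewed quantile normalisation (4 shared), the mean of probe sets and array weights, whose fit stopped before full convergence. It was 4 with a 2-fold minimum. The replicate number as a block gave 86 calls, 20 higher and 66 lower, including all 5. The labels give no shared litter or day, only 2 pairs exist between HEBKO and E2AKO, and the deviations of same-numbered arrays correlated at 0.15 there and at -0.29 to 0.48 over all groups, so the numbers were not taken to pair the mice. Number and sex coincide in HEBKO and E2AKO. Over 108 named genes the sign changed in 7 cases: between the fits without E2AKO 2 and without E2AKO 1, Hsph1 ran from -0.38 to 1.63 and Hspa8 from -0.05 to 0.87. Between those without HEBKO 1 and without HEBKO 2, Itm2a ran from -0.23 to 1.11, Gimap4 from -0.09 to 1.47, Bcl2 from -0.03 to 0.67, Nkg7 from -0.04 to 0.87 and Ctsw from -0.02 to 0.69. None of the 7 genes had passed the test, and the cause was not tested. Otherwise 2058 values kept their sign and side of the threshold, 62 newly passed and 29 no longer passed. Of the list medians, 30 moved by more than the spread between arrays and 407 did not. With 2 arrays a group, probe sets near the 40th percentile, as for Atp8b4 and Myzap, carry background that can reduce a ratio.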

Other observations

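A few genes with a 2-fold lower mean in HEBKO owed it to 1 array. Ctse, an aspartic protease, had 7.62 and 7.26 in HEBKO, against 10.96 and 7.76 in E2AKO, and its DKO values were 10.90, 10.91 and 7.63, against 7.36, 7.08 and 7.58 in WT. Gdpd3, a phosphodiesterase, had 5.71 and 5.85 in HEBKO, against 9.64 and 5.51 in E2AKO, with 10.18, 6.19 and 6.20 in DKO and 5.72, 5.80 and 5.80 in WT. In both genes E2AKO 1 and DKO 1 were high while E2AKO 2 and DKO 3 were not, and DKO 2 was high for Ctse only. Trim12a, of the TRIM family, had 9.93 and 6.08 in HEBKO, against 9.56 and 10.60 in E2AKO, and DKO 3 was the other low array at 6.4. Trbv1, a variable segment of the T cell receptor beta locus, had 7.02 and 10.68 in HEBKO, against 10.07 and 10.09 in E2AKO. None of these 4 genes passed the test.

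Mir142 had 7 and 6.85 in HEBKO, against 7.71 and 8.18 in E2AKO (-1.02, limma adjusted p = 0.0948), while its DKO values of 8.15, 8.18 and 8.14 were within the range of the WT values of 7.60, 7.77 and 8.38.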
